A study of Homo sapiens with 6 samples.

Results

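The 10 genes described here include those of the NF-kB subunits (RELA, RELB, REL, NFKB1 and NFKB2). The others encode 4 proteins of the IkB family (NFKBIA, NFKBIB, NFKBIE and NFKBIZ) and the ubiquitin-editing enzyme A20 (TNFAIP3). All 10 genes were taken by gene symbol from 32078 named genes in a table of raw counts, and each symbol had 1 row. The 6 libraries were made from polyadenylated RNA of PANC-1, a human cell line established from a carcinoma of the pancreas. According to their labels, 3 were exposed to extracellular vesicles (EVs) released by CAFs (cancer-associated fibroblasts, the activated fibroblasts of tumour stroma), and the other 3 were not. They are called EV libraries and control libraries here. The protocol text mentions vesicle treatment for every library, controls included, so group membership was taken from titles and treatment tags. The sources used here do not give the vesicle dose or exposure time. Whether replicates were separate cultures is unstated, and p-values therefore describe library-to-library spread that may be only technical.

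NF-kB proteins bind DNA as dimers. In resting cells the IkB proteins hold most dimers in the cytoplasm. Signals from receptors such as those for TNF and interleukin-1 activate the IkB kinase complex, IkB-alpha (NFKBIA) is degraded, and dimers of RELA and p50, which is made from NFKB1, enter the nucleus. This is the canonical route. The non-canonical route runs through the kinase NIK (MAP3K14) and the processing of NFKB2 to p52, the partner of RELB. Many of the genes that NF-kB switches on belong to its own circuit, among them NFKBIA, TNFAIP3, NFKB2 and RELB, so their transcripts are often read as a record of past signalling. In pancreatic carcinoma the pathway is known for driving cytokine production and resistance to cell death.

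The binding element can be seen in the sequence before several of these genes. RefSeq windows of GRCh38.p14, from 250 bases before to 50 bases after each annotated start, were at hand for 8 of the 10 genes (all but RELB and NFKBIE), 14 windows in all. Both strands were searched for the NF-kB consensus. It matched in 9 of 14 windows, which belong to 7 genes, and in 11.3% of all 35116 windows of that length. The 250 bases before the start are printed below for a gene that was higher in the EV libraries (NFKBIA) and for 3 that were lower (TNFAIP3, NFKB2 at the second of its 3 starts, and NFKB1 at the first of its 2). They run along the gene's own strand, and capitals mark the matches, including those to the reverse complement.
NFKBIA, chr14:35404750-35404999, minus strand: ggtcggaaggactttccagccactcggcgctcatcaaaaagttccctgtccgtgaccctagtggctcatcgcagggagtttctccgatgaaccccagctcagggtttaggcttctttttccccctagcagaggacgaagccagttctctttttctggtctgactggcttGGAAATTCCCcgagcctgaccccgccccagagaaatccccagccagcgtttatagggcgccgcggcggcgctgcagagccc
TNFAIP3, chr6:137867009-137867258, plus strand: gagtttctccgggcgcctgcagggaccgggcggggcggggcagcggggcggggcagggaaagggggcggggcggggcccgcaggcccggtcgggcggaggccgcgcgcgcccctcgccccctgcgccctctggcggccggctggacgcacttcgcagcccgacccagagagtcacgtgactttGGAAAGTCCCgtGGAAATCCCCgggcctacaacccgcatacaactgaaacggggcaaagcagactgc
NFKB2, chr10:102394328-102394577, plus strand: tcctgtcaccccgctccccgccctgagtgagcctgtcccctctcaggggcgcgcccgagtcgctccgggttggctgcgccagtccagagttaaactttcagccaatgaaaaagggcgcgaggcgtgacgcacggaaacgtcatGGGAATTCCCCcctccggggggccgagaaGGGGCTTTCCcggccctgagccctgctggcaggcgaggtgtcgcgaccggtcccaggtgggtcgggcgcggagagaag
NFKB1, chr4:102501109-102501358, plus strand: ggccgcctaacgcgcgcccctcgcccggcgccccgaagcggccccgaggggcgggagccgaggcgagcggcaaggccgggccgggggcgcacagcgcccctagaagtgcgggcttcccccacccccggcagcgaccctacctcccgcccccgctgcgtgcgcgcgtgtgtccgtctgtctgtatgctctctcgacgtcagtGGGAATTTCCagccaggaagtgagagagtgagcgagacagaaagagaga
The NFKBIA match began 81 bases before the start. TNFAIP3 had a pair of matches close together, at 67 and 55 bases before the start. NFKB2 had overlapping matches that began 107 and 106 bases before its second start, and another at 78 bases. The NFKB1 match lay 49 bases before the start, and the same letters, GGGAATTTCC, occurred before NFKBIZ and NFKBIB. The windows of both RELA starts held no match, which says only that these letters are absent there. A match describes the sequence and was not tested for binding.

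**Figure D1:**
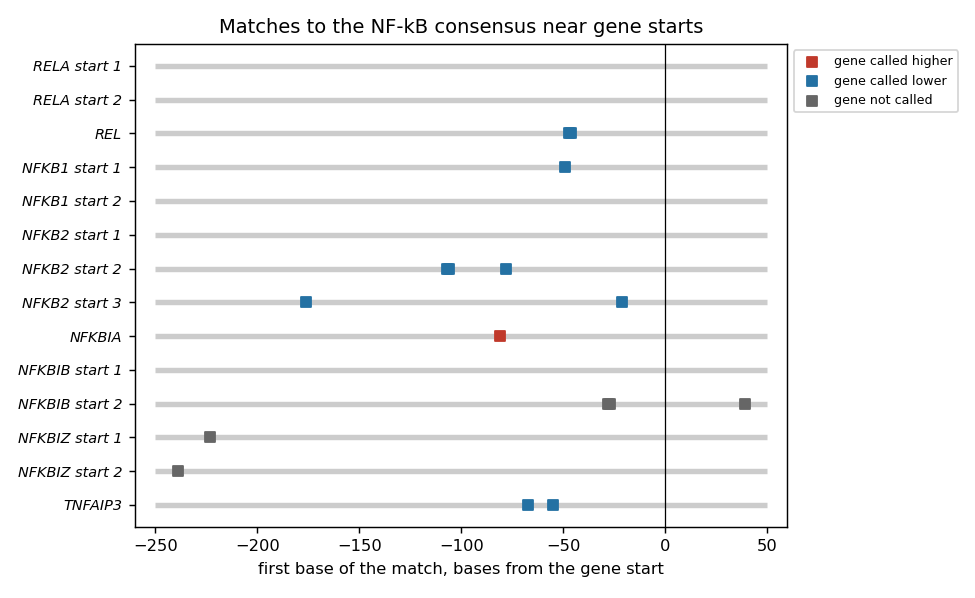
Each grey line is a window from 250 bases before to 50 bases after an annotated RefSeq start, and each square is the first base of a match to the NF-kB consensus on either strand, coloured by whether the gene was called higher, lower or neither in the EV libraries. Matches occurred in 9 of 14 windows, before genes that were called higher, called lower and not called.

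Library totals ran from 21669757 to 27134375 counts in the EV libraries and from 23646239 to 27535620 counts in the control libraries. Levels are in CPM, the counts of a gene scaled to a common library size with TMM factors, and a count of 0 allows up to 0.11 to 0.137 CPM. Calls were made with edgeR's quasi-likelihood test at a Benjamini-Hochberg adjusted p under 0.05 over the 14670 genes with enough counts, and all adjusted p-values below come from it unless another tool is named. The labelled cell type was checked first. Of 7 carcinoma cell markers, 4 were tested, of which 2 fell and 0 rose, beside 20.7% and 20.2% of all tested genes. KRT8 was at 3379 ± 181 CPM in the EV libraries and 3060 ± 196 CPM in the control libraries (SD, n = 3 each), and neither this keratin gene nor KRT18 was called. KRT19, another keratin gene, fell to 279 ± 14.7 CPM in the EV libraries, against 390.4 ± 25.02 CPM in the control libraries (log2 fold change -0.48 ± 0.06), and the mucin gene MUC1 fell to 7.80 ± 1.2 CPM, against 19.9 ± 0.846 CPM in the control libraries (-1.35 ± 0.11). A further keratin gene, KRT7, had only 1, 2 and 3 counts in the EV libraries and 5, 10 and 7 in the control libraries. It was not tested. The epithelial genes EPCAM and CDH1 had 0 counts in all 6 libraries, and whether the cells are PANC-1 was not tested.

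Markers of other cell types were mixed. Of 13 immune cell markers, 9 were in the table, PTPRC and TYROBP had 0 counts in all 6 libraries, and only LYZ was tested, at 1.07 ± 0.231 CPM in the EV libraries and 0.952 ± 0.195 CPM in the control libraries, without a call. CD14 and CD79A had at most 10 and 8 counts in a library, and the list summed to 1.69 to 2.03 CPM in the EV libraries and 1.64 to 1.94 CPM in the control libraries. Of 12 fibroblast markers, 11 were in the table and 4 were tested. COL1A2, a collagen gene, rose to 186 ± 9.63 CPM in the EV libraries, against 114 ± 12.6 CPM in the control libraries (log2 fold change 0.71 ± 0.07), while ACTA2, the gene of smooth muscle actin, fell to 2.79 ± 0.675 CPM, against 5.23 ± 0.0417 CPM in the control libraries (-0.91 ± 0.17). FBLN1 was at 23.1 ± 1.46 CPM in the EV libraries and 20.4 ± 0.538 CPM in the control libraries, and neither it nor COL3A1 was called. DCN, LUM, POSTN and THY1 had 0 counts in all 6 libraries. COL1A1 and PDGFRA had at most 3 counts in a library, and PDGFRB at most 13. The fibroblast list summed to 221 to 243 CPM in the EV libraries and 141 to 166 CPM in the control libraries. Most of that sum was COL1A2 in both groups. The part of the fibroblast list in the results below was not tested. Of 7 endothelial markers, CDH5 and EMCN were tested and not called, KDR and TEK had 0 counts in all 6 libraries, and the list summed to 11.1 to 13.4 CPM in the EV libraries and 11.1 to 12.7 CPM in the control libraries.

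Mitochondrially encoded genes took 0.745% to 1.04% of counts in the EV libraries and 0.746% to 1.06% in the control libraries. Of 13 such genes, MT-ND3 (log2 fold change 0.56 ± 0.07) and MT-ND2 (0.34 ± 0.09) rose and MT-ND6 (-0.35 ± 0.11) fell. By DESeq2, MT-ND2 (adjusted p = 0.0714) and MT-ND6 (adjusted p = 0.199) were not called, and MT-ND6 also lost its call without control replicate 3 (adjusted p = 0.172), EV replicate 2 (adjusted p = 0.0891) or EV replicate 3 (adjusted p = 0.102). Of 12 heat shock genes, 9 rose and 0 fell, beside 20.2% and 20.7% of all tested genes. Their summed level was 9056 to 9929 CPM in the EV libraries against 7132 to 7678 CPM in the control libraries. The 4 with the lowest adjusted p were HSPA1A (1.63 ± 0.12) and HSPA1B (2.26 ± 0.17), near-identical copies whose reads may be split between them, the co-chaperone gene DNAJA1 (0.64 ± 0.06) and the chaperone gene HSPA8 (0.72 ± 0.07). Whether this bears on the NF-kB genes was not tested.

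Of the 10 genes, 6 were lower in the EV libraries, 2 were higher and 2 did not pass. All 5 subunit genes and TNFAIP3 fell, by between 1.19-fold (NFKB1) and 1.68-fold (TNFAIP3), while the inhibitor genes NFKBIA and NFKBIE rose by 1.20-fold and 1.23-fold. REL and NFKBIE passed the threshold only narrowly. Across all tested genes, 40.9% were called (20.7% lower and 20.2% higher), so a large share of the transcriptome differed between the groups. CPM values did not overlap between the groups for 7 of the 10 genes in the lower direction, against 25.5% of all tested genes, and for 1 gene in the higher direction, against 25.1% (50.6% in either direction). The median log2 fold change, EV over control, was -0.27 over the 10 genes and -0.0071 over all tested genes. In bulk RNA, a change in the share of cells that transcribe a gene and a change in RNA per cell cannot be told apart.

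**Figure D2:**
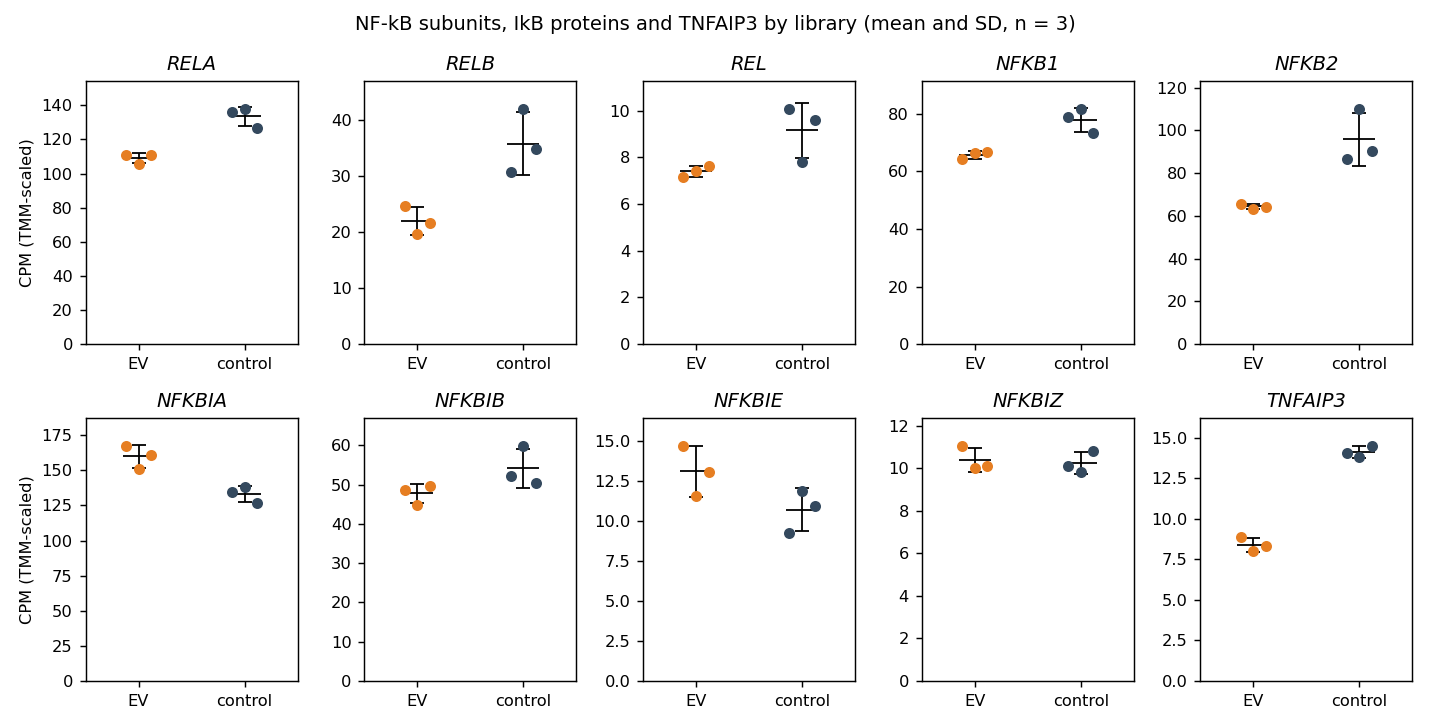
CPM of each gene in each library, EV left and control right, with points for libraries and bars for mean and SD (n = 3 each). The EV libraries lie below every control library for the 5 subunit genes, NFKBIB and TNFAIP3 and above every control library for NFKBIA, and the groups overlap for NFKBIE and NFKBIZ.

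RELA encodes p65, the main activating subunit of the canonical route. It was at 111, 106 and 111 CPM in the EV libraries, against 136, 138 and 127 CPM in the control libraries. The groups did not overlap, and the log2 fold change was -0.29 ± 0.06 (SE; adjusted p = 0.000579). NFKB1, the gene of the p105 precursor and of p50, was at 64.3, 66.3 and 66.7 CPM in the EV libraries, against 78.8, 81.6 and 73.4 CPM in the control libraries. Its change was the smallest among the called genes (log2 fold change -0.24 ± 0.06, adjusted p = 0.0037). These are the partners of the classical heterodimer, and their changes were close in size.

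The genes of the non-canonical dimer showed larger changes. RELB was at 24.8, 19.6 and 21.6 CPM in the EV libraries and at 30.7, 41.9 and 34.8 CPM in the control libraries. The highest EV library stayed below the lowest control library, although both groups spread widely for this gene, and the log2 fold change was -0.70 ± 0.10 (adjusted p = 2.82e-05). NFKB2, which encodes the p100 precursor of p52, was at 65.7, 63.2 and 64.2 CPM in the EV libraries, against 86.8, 110 and 90.5 CPM in the control libraries. The EV libraries lay within a narrow band below all controls, and control replicate 2 stood above the other two controls (log2 fold change -0.57 ± 0.08, adjusted p = 8.53e-06). Without that control library, NFKB2 was still called at -0.46 and RELB at -0.57 on the log2 scale.

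REL encodes c-Rel, best known from lymphoid cells, and was the least abundant subunit gene per length of annotated exon (13170 bases, the longest among the members). It overlaps AC010733.2 on the same strand by 5702 bases in GENCODE v29. That gene has no row among the counts, and whether its reads were counted for REL is unknown. REL was at 7.17, 7.42 and 7.63 CPM in the EV libraries and at 10.1, 7.82 and 9.60 CPM in the control libraries. Control replicate 2 lay just above the EV libraries. The log2 fold change of -0.30 ± 0.12 passed narrowly (adjusted p = 0.0471). The call was lost without control replicate 1 (adjusted p = 0.165), control replicate 3 (adjusted p = 0.123), EV replicate 1 (adjusted p = 0.134), EV replicate 2 (adjusted p = 0.1) or EV replicate 3 (adjusted p = 0.0829), and by DESeq2 (adjusted p = 0.0867) and limma-voom (adjusted p = 0.0599).

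NFKBIA encodes IkB-alpha, the inhibitor that is degraded and resynthesised in each round of canonical signalling. It was at 167, 151 and 161 CPM in the EV libraries, against 135, 138 and 127 CPM in the control libraries. Every EV library lay above every control library, opposite to the subunit genes. The log2 fold change was 0.26 ± 0.06 (adjusted p = 0.00168). NFKBIE, which encodes IkB-epsilon, was at 14.7, 11.5 and 13.1 CPM in the EV libraries and at 9.25, 11.9 and 10.95 CPM in the control libraries. The groups overlapped, since EV replicate 2 lay below control replicate 2, and the log2 fold change of 0.29 ± 0.11 passed narrowly (adjusted p = 0.0474). That call was lost without control replicate 1 (adjusted p = 0.188), control replicate 3 (adjusted p = 0.0636), EV replicate 1 (adjusted p = 0.215) or EV replicate 3 (adjusted p = 0.0888), and by DESeq2 (adjusted p = 0.0607).

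The other IkB genes, NFKBIB and NFKBIZ, did not pass. NFKBIB, which encodes IkB-beta, was at 48.7, 44.9 and 49.7 CPM in the EV libraries and at 52.2, 59.9 and 50.4 CPM in the control libraries. The groups did not overlap, but their nearest libraries were close, and the log2 fold change was -0.18 ± 0.07 (adjusted p = 0.0542). It passed in 3 of 15 alternatives: without control replicate 3 (adjusted p = 0.0219), with upper-quartile scaling (adjusted p = 0.0338) and with a filter of 1 CPM in at least 3 libraries (adjusted p = 0.0419). NFKBIB overlaps SIRT2 on the opposite strand by 163 bases in GENCODE v29, and SIRT2 had 1551 to 2024 counts. Reads in that overlap may be split between both genes, because the strand setting of the counting is unknown. NFKBIZ encodes IkB-zeta, a nuclear member of the family that helps switch on secondary response genes such as cytokine genes. It was at 11.05, 10.03 and 10.1 CPM in the EV libraries and at 10.1, 9.83 and 10.8 CPM in the control libraries. The groups overlapped, and the 95% interval of the log2 fold change ran from -0.19 to 0.24.

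TNFAIP3 encodes A20, which removes activating ubiquitin chains from the signalling complex and so ends the response. It was at 8.87, 8.01 and 8.31 CPM in the EV libraries, against 14.04, 13.8 and 14.5 CPM in the control libraries. Both groups were tight and far apart. The log2 fold change was -0.75 ± 0.10 (adjusted p = 8.34e-06), the lowest among the 10 genes, and its absolute value was above that of 91.6% of tested genes. An antisense gene that overlaps TNFAIP3, AL357060.1, had only 3 to 16 counts.

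**Figure D3:**
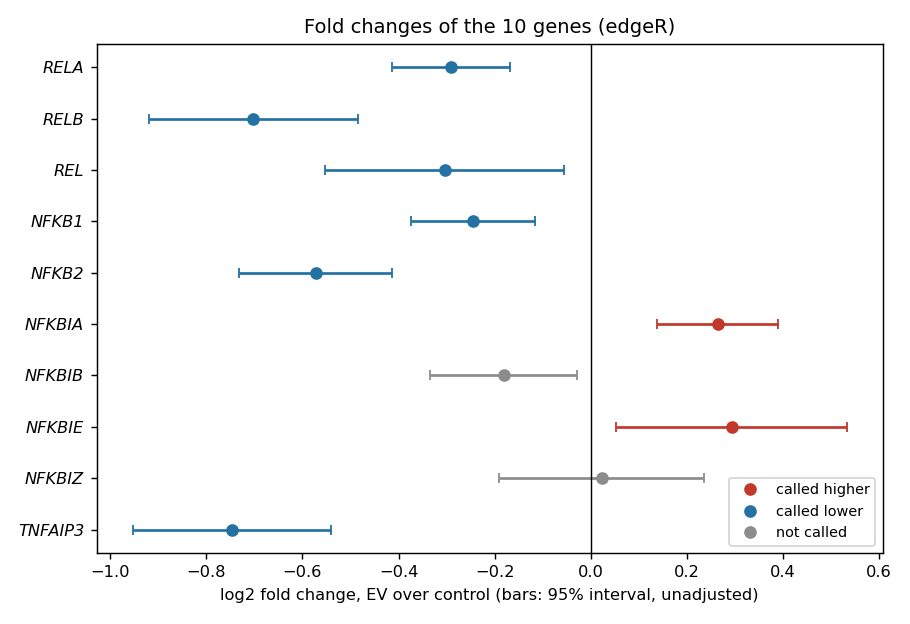
Log2 fold change of each gene, EV over control, from edgeR, with unadjusted 95% intervals. RELB (-0.70), TNFAIP3 (-0.75) and NFKB2 (-0.57) lie farthest to the left, while NFKBIA (0.26) and NFKBIE (0.29) lie to the right of 0.

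Because these genes are read from the same libraries, their counts can also be compared within a library, where library scaling has no effect. There were 1.51, 1.43 and 1.46 NFKBIA counts for each RELA count in the EV libraries, against 0.991, 1.00 and 0.999 in the control libraries. The control libraries were nearly identical in this ratio and all EV libraries lay above them, a 1.47-fold difference (0.55 on the log2 scale). TNFAIP3 and NFKBIA, both feedback inhibitors with the consensus before their starts, moved apart. There were 0.0530, 0.0530 and 0.0515 TNFAIP3 counts for each NFKBIA count in the EV libraries, against 0.104, 0.0999 and 0.114 in the control libraries, a 2.02-fold lower ratio. The ratio of NFKB2 to NFKB1 was 1.02, 0.954 and 0.963 in the EV libraries and 1.10, 1.35 and 1.23 in the control libraries. The ratio of NFKBIZ to NFKBIA was 0.0660, 0.0663 and 0.0627 in the EV libraries and 0.0750, 0.0711 and 0.0852 in the control libraries. The groups did not overlap in any of the 4 ratios. For NFKBIA to RELA and TNFAIP3 to NFKBIA this had to be so, because the single genes already lay apart in opposite directions. Those ratios restate the single-gene results and add no separate support. The two-sided exact permutation test gave p = 0.1 for each, before and after adjustment over the 4, and this is the smallest p that 3 libraries against 3 allow.

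**Figure D4:**
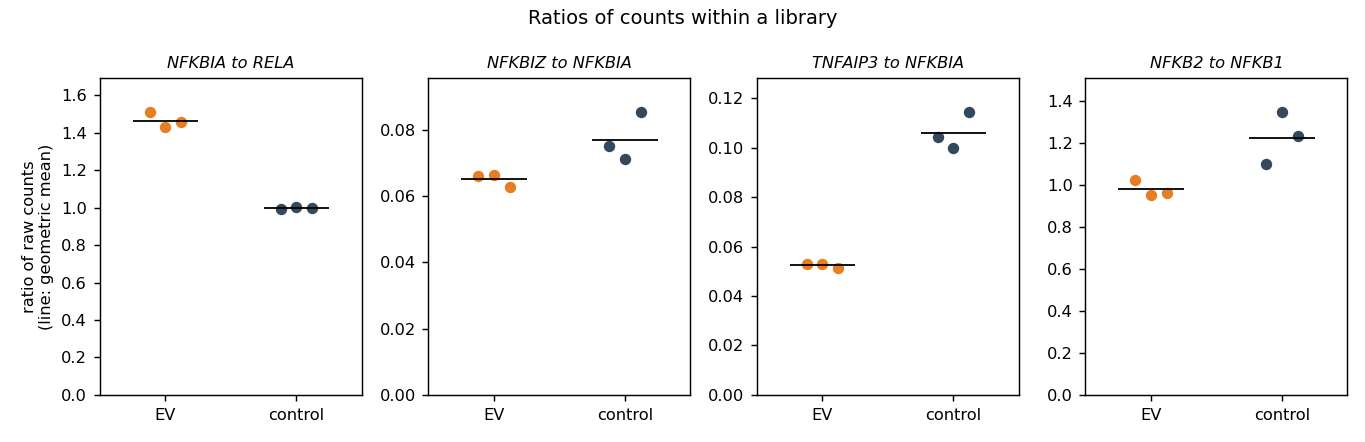
Ratio of raw counts of 2 genes in each library, EV left and control right, with the geometric mean as a line. The NFKBIA to RELA ratio is 1.43 to 1.51 in the EV libraries and 0.991 to 1.00 in the control libraries, and the TNFAIP3 to NFKBIA ratio is 0.0515 to 0.0530 in the EV libraries and 0.0999 to 0.114 in the control libraries.

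Levels of different genes were compared per kilobase of annotated exon (GENCODE v29), which is approximate because the transcripts in use were not resolved. NFKBIA was the most abundant, at 67.4 ± 3.43 CPM per kilobase in the EV libraries and 56.2 ± 2.47 in the control libraries. NFKBIB and RELA came next and did not differ beyond their spread, at 20.6 ± 1.08 and 19.97 ± 0.543 CPM per kilobase in the EV libraries and at 23.3 ± 2.16 and 24.4 ± 1.05 in the control libraries. NFKB2 was at 14.4 ± 0.279 CPM per kilobase in the EV libraries, below RELA, and at 21.4 ± 2.76 in the control libraries, where it did not differ from NFKBIB beyond the spread. NFKB1 was at 10.51 ± 0.206 CPM per kilobase in the EV libraries and 12.4 ± 0.667 in the control libraries. RELB was at 7.24 ± 0.85 CPM per kilobase in the EV libraries and 11.8 ± 1.88 in the control libraries, so it lay below NFKB1 in the EV libraries but within its spread in the control libraries. NFKBIE was at 5.08 ± 0.613 CPM per kilobase in the EV libraries and 4.15 ± 0.523 in the control libraries. The lowest 3 were NFKBIZ, at 1.76 ± 0.0955 in the EV libraries and 1.74 ± 0.0854 in the control libraries, TNFAIP3, at 1.66 ± 0.0857 in the EV libraries and 2.80 ± 0.07 in the control libraries, and REL, at 0.562 ± 0.0175 in the EV libraries and 0.695 ± 0.0898 in the control libraries. NFKBIZ and TNFAIP3 did not differ beyond their spread in the EV libraries, whereas in the control libraries TNFAIP3 was the higher. Summed over the 5 subunit genes, levels were 273, 262 and 271 CPM in the EV libraries and 342, 379 and 335 CPM in the control libraries. Summed over NFKBIA, NFKBIB and NFKBIE they were 231, 208 and 224 CPM in the EV libraries and 196, 210 and 188 CPM in the control libraries, and there the groups overlapped.

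The libraries of each group were also ranked for each of the 10 genes. EV replicate 2 was the lowest of its group for 8 of the 10 genes, and control replicate 2 was the highest of its group for 7. Control replicate 2 was also the lowest of its group for REL, NFKBIZ and TNFAIP3. The same ranks were not counted over all tested genes, so these counts cannot be read as a trait of the 10 genes. Genes whose profile over the 6 libraries lay nearest to a member, by Euclidean distance of centred log2 CPM among 9020 genes averaging 10 CPM or more, were DBN1, PPP6R1 and EEF1A1P5 for RELA (distances 0.0362, 0.0429 and 0.0581). SNRPF, TMEM120A and C20orf27 were nearest to NFKBIA (0.0331, 0.0553 and 0.0622), and ZNF160, RNF41 and CLDN4 to TNFAIP3 (0.0739, 0.106 and 0.106). EEF1A1P5 is a pseudogene of EEF1A1 and shares reads with it, so its counts are uncertain.

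The rest of the pathway was described by 6 lists that cover the 3 other IkB family genes, receptors and adaptors, kinases, ligands, ubiquitin editors and target genes. Of 91 tested genes in these lists, 32 (35.2%) fell and 17 (18.7%) rose in the EV libraries, beside 20.7% and 20.2% of all tested genes. The median log2 fold change was -0.10. Lower calls were most frequent among the target genes, whereas receptors, adaptors and kinases had shares near those of all genes.

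No ligand gene had enough counts to be tested. TNF, the prototype activating cytokine, was at 0.161 ± 0.0237 CPM in the EV libraries and 0.234 ± 0.0792 CPM in the control libraries, close to the level a count of 0 allows. The 10 ligand genes in the table summed to 0.595 to 0.998 CPM in the EV libraries and 1.16 to 1.65 CPM in the control libraries. In a fit without the count filter, LTB, the lymphotoxin-beta gene, was the one ligand called (log2 fold change -1.59 ± 0.58, adjusted p = 0.0325). LTB had only 6, 3 and 1 counts in the EV libraries and 5, 17 and 11 in the control libraries. Its groups overlapped in CPM, so that call is weak.

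Receptors and adaptors were split, with 4 of 20 higher and 4 lower (20% each), beside 20.2% and 20.7% of all tested genes. TNFRSF1B, the gene of TNF receptor 2, was at 19.9, 21.1 and 20.2 CPM in the EV libraries, against 12.4, 11.3 and 10.6 CPM in the control libraries. The groups lay far apart (log2 fold change 0.84 ± 0.09, adjusted p = 8.95e-07). IL1R1, the interleukin-1 receptor (0.30 ± 0.07), MYD88, its adaptor (0.37 ± 0.09), and TRAF2, an adaptor of TNF receptors (0.25 ± 0.07), also rose on the log2 scale. The lower genes were TRAF3, an adaptor that restrains NIK (-0.42 ± 0.06, adjusted p = 2.05e-05), TNFRSF12A, the receptor of TWEAK (-0.49 ± 0.08), TNFRSF10B, a receptor of TRAIL (-0.37 ± 0.07), and LTBR, the lymphotoxin-beta receptor (-0.28 ± 0.06). TNFRSF1A, the main TNF receptor gene, was at 420 ± 15.3 CPM in the EV libraries and 447 ± 21.1 CPM in the control libraries and was not called (adjusted p = 0.242). IL1R1, MYD88, TRAF2, LTBR and TNFRSF1A were chosen after their values were seen.

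Among 16 kinase genes, 4 (25%) rose and 3 (18.8%) fell, beside 20.2% and 20.7% of all tested genes. CHUK, the gene of IKK-alpha, which acts in the non-canonical route, was at 36.02, 39.8 and 36.6 CPM in the EV libraries, against 24.0, 21.6 and 28.3 CPM in the control libraries (log2 fold change 0.60 ± 0.09, adjusted p = 2.88e-05). IKBKB, the gene of IKK-beta, the catalytic subunit of the canonical route, was lower (-0.24 ± 0.07, adjusted p = 0.0068). The groups did not overlap for either kinase. RIPK1, a kinase of the TNF receptor complex (0.30 ± 0.07), IKBKE (0.31 ± 0.10) and MAP3K7, the gene of TAK1 (0.17 ± 0.06), rose too. RIPK2, the kinase downstream of NOD receptors (-0.46 ± 0.10), and TAB2, a partner of TAK1 (-0.18 ± 0.06), fell. IKBKG, the regulatory subunit NEMO, and MAP3K14, the gene of NIK, were not called (adjusted p = 0.457 and adjusted p = 0.608). With EV replicate 1 left out, only 2 of the kinase genes were called higher. IKBKE, MAP3K7, TAB2, IKBKG and MAP3K14 were chosen after their values were seen.

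Of 20 tested genes of ubiquitin editing and restraint, 6 (30%) fell and 3 (15%) rose, beside 20.7% and 20.2% of all tested genes. The list mixes genes that promote the pathway with genes that restrain it, so these counts give no direction for restraint. TNIP1, which encodes a partner protein of A20, was at 104, 91.5 and 94.7 CPM in the EV libraries, against 141, 155 and 146 CPM in the control libraries. Its groups were well apart (log2 fold change -0.61 ± 0.06, adjusted p = 4.56e-07). TAX1BP1, an adaptor of A20, fell with it (-0.47 ± 0.06, adjusted p = 4.89e-06). RBCK1, which encodes HOIL-1, a subunit of the linear ubiquitin chain assembly complex, also fell (-0.49 ± 0.07), and so did SHARPIN of the same complex, OTUD7B, and CYLD, a deubiquitinase that restrains the pathway (-0.30 ± 0.07). UBE2N, a ubiquitin-conjugating enzyme that makes activating chains (0.47 ± 0.06), OTULIN, which removes linear chains (0.53 ± 0.08), and the phosphatase gene PPP2CA rose. RNF31, also on the list, had 3 to 9 counts in each library and was not tested. SHARPIN, OTUD7B, CYLD, OTULIN, PPP2CA and RNF31 were chosen after their values were seen.

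Of 3 other IkB family genes, NFKBIL1 fell (-0.62 ± 0.11, adjusted p = 0.000153) and NFKBID, which encodes the nuclear protein IkB-NS, rose (0.37 ± 0.13, adjusted p = 0.0266). The NFKBID call was lost without control replicate 1 (adjusted p = 0.0554), control replicate 2 (adjusted p = 0.0637), EV replicate 2 (adjusted p = 0.111) or EV replicate 3 (adjusted p = 0.0753), and by DESeq2 (adjusted p = 0.0502). BCL3 was at 22.7 ± 1.79 CPM in the EV libraries and 25.4 ± 0.659 CPM in the control libraries and was not called.

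Target genes were lower in 18 of 32 tested (56.2%) and higher in 5 (15.6%), out of 45 listed, with a median log2 fold change of -0.37. Among all tested genes, 20.7% were lower and 20.2% higher. KLF6, a transcription factor gene, was at 219, 200 and 201 CPM in the EV libraries and at 353, 369 and 341 CPM in the control libraries (-0.78 ± 0.06, adjusted p = 8.32e-09). PTX3, the gene of a secreted pentraxin, was at 172, 159 and 151 CPM in the EV libraries and at 287, 323 and 373 CPM in the control libraries (-1.03 ± 0.08, adjusted p = 8.6e-09). LIF, a cytokine of the interleukin-6 family (-0.84 ± 0.07), and CSF3, the gene of granulocyte colony-stimulating factor (-1.95 ± 0.19), were the other two with the lowest adjusted p. The groups did not overlap for any of these. The 5 higher targets were CD83 (0.94 ± 0.11), NINJ1 (0.38 ± 0.08), TAP1 (0.30 ± 0.07), IRF2 (0.34 ± 0.09) and RELT (0.27 ± 0.09), named after their values were seen. BIRC3, a well known NF-kB target that encodes cIAP2, was at 38.6 ± 2.81 CPM in the EV libraries and 40.8 ± 6.46 CPM in the control libraries and was not called (adjusted p = 0.493), also named after its values were seen. Many listed targets are induced by other stress and growth factor pathways as well. IL6, PTGS2, VCAM1 and BCL2A1 had 0 counts in all 6 libraries.

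**Figure D5:**
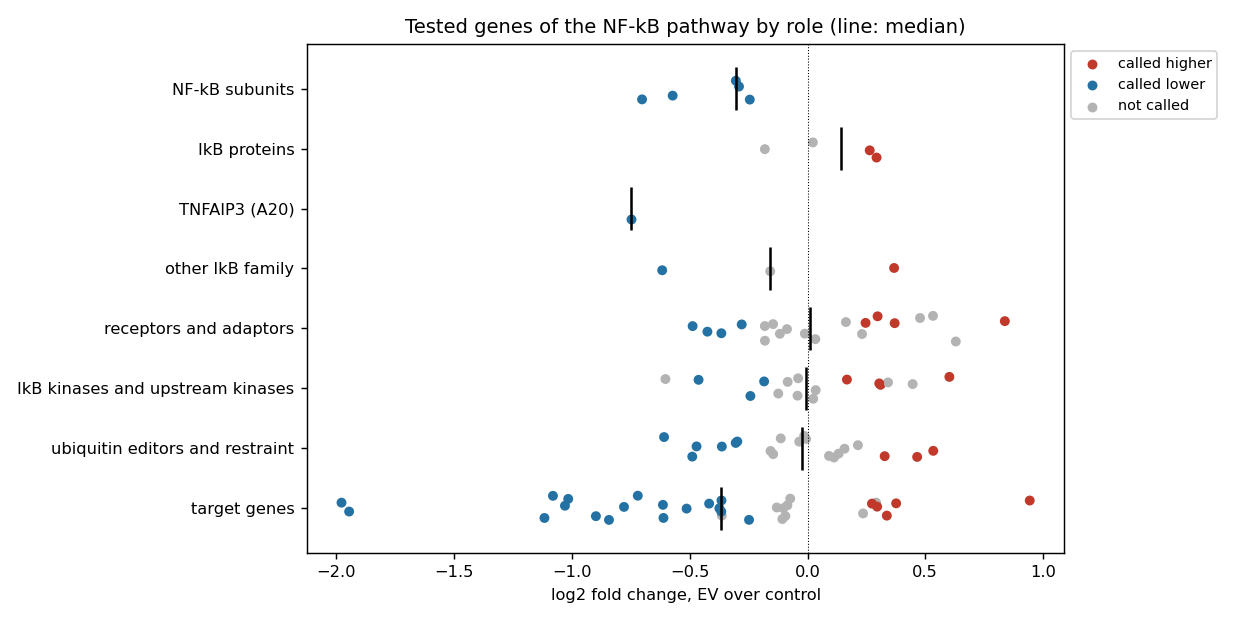
Log2 fold change of each tested gene, EV over control, by role, coloured by call, with the median of each list as a line. The target genes (median -0.37) and the 5 subunit genes (median -0.30) lie mostly to the left of 0, while receptors (0.01) and kinases (-0.0077) are centred near it.

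The authors' deposited table gives its fold changes as control over EV, so its signs are opposite to those above. In the authors' deposited table TNFAIP3 has a log2 fold change of 0.73 (q = 1.49e-11) and NFKBIA of -0.28 (q = 0.000295), both control over EV. The q in the authors' deposited table was 0.0747 for REL, 0.0591 for NFKBIE and 0.15 for NFKBIB, so none of these passed 0.05 there. The State entry there read None for every member, TNFAIP3, NFKB2, RELB and NFKBIA included. How State was assigned is not known here, so a low q does not mean that the authors called a gene changed. The table rests on the same libraries and is no independent support.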

How the data were processed

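Poly(A) RNA of 6 libraries was sequenced, 3 per group. The authors deposited raw counts per gene, and TopHat, RSEM and hg19 are listed, with no version or role, in the notes on processing (per the submitters' processing notes). The sources used here give neither annotation nor strand setting. A table of the authors' comparison was deposited too, with log2 means, log2 ratios, p-values, q-values and a State entry for each gene. Of 32453 features, 375 assembled loci without a gene name (0.099% to 0.134% of counts) were left out.

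The count test used edgeR 4.0.16 under R 4.3.3 (glmQLFit and glmQLFTest, TMM, filterByExpr, prior count 0.125) on 14670 genes with Benjamini-Hochberg adjustment. The SE is the absolute log2 fold change divided by the square root of F. Floors of 3 counts cover counting error only, since PCR copies are not independent molecules. The test was checked on simulated counts for 14670 genes: it called 46%, 86%, 94% and 100% of genes changed by 1.25-, 1.5-, 2- and 4-fold, and made 3 false calls. The simulation changed 50 genes per fold, all above a minimum count, and gave every gene the same dispersion. In the data far more genes were called and the spread differed between genes, so these rates may not hold there. No replicate pair agreed within sampling noise.

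Members, gene lists and tests were chosen with earlier results of these data known. Besides the members, each list contributed its 4 called genes of lowest adjusted p, or 2 tested genes if it had no call, and the text names the 3 nearest profiles for RELA, NFKBIA and TNFAIP3. All other genes named, markers included, were chosen after their values were seen. Promoter sequences are from RefSeq, GRCh38.p14, and exon lengths and overlaps from GENCODE v29. Alternatives were 3 other scalings, 2 other filters, DESeq2 1.42.0, limma-voom (limma 3.58.1), a replicate block, a stricter threshold and leaving out each library.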

Additional observations from a re-analysis of the deposited data

How the results depend on the processing

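RELA, RELB, NFKB1, NFKB2, NFKBIA and TNFAIP3 kept their direction and their call in all 15 alternatives run, with adjusted p-values of at most 0.0246 (NFKB1). The count of members higher fell to 1, NFKBIA, in place of 2 with the filter of 1 CPM in at least 3 libraries, an adjusted p under 0.01, DESeq2, the replicate block and upper-quartile scaling, and ran from 1 to 2 with a library left out. The count of members lower ran from 5 to 7 over all alternatives. REL also lost its call with scaling by library totals or median ratios and without a count filter. NFKBIZ, never called, was at -0.0075 without control replicate 2 and -0.017 without EV replicate 1, and ran up to 0.063 with a library left out. Among markers not called, EMCN was at -0.0085 with upper-quartile scaling, -0.06 without control replicate 2 and -0.064 without EV replicate 1, with up to 0.074 when another library was left out, and LYZ ran from -0.0029 without EV replicate 1 to 0.32. The median log2 fold change of all tested genes was -0.027 with upper-quartile scaling, 0.004 with library totals alone and -0.0071 with TMM. The direction of each of the 4 within-library ratios was the same without any library.

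Libraries share replicate numbers between the groups, but the labels do not say that a number marks a shared culture or day. Deviations of same-numbered libraries correlated at -0.0849, -0.0708 and -0.0903. Those of differently numbered libraries ran from -0.196 to 0.282. The highest were EV 3 with control 1 (0.282), EV 2 with control 3 (0.245) and EV 1 with control 2 (0.24). A block by replicate number does not cover such pairs, and what they reflect was not tested. With the replicate block, 2846 genes were higher and 2897 lower, against 2965 and 3036 without it. Of the members, REL (adjusted p = 0.0527) and NFKBIE (adjusted p = 0.052) lost their calls under the block (edgeR). For the ratios, the exact sign-flip test over pairs gave p = 0.25, the smallest it allows.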
